A study of Mus musculus with 24 samples.

Results

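Glycolysis and the response to low oxygen were followed through 42 genes, matched by symbol among the 52976 gene symbols of the count files, in wounds of diabetic mice and in a macrophage line. The 42 comprised 2 glucose transporters, 3 hexokinases, 9 genes of upper glycolysis and its control, 7 of lower glycolysis, 6 of pyruvate and lactate handling, 4 of the oxygen-sensing system and 11 further targets of that system. The study made a peptide hydrogel loaded with silver nanoclusters and a hydrogenase that tolerates oxygen, so that the gel gives off hydrogen gas in the light. Wound tissue was sequenced at days 1, 7 and 14 from diabetic mice, 3 libraries a group: controls, labelled Diabetic control and titled Dia, and wounds given the hydrogel labelled Fmoc-KYF-AgNCs-3S1C-Hyd2 and titled TEOA. RAW264.7, an established mouse macrophage-like line, was sequenced as 3 libraries without hydrogel, labelled LPS and titled Without_H2, and 3 with hydrogel, titled H2. All wound groups share the diabetic background. How diabetes was induced, the strain, sex and age of the mice, and whether libraries came from separate animals or cultures are not given in the sources used here, so p-values measure a spread that may be technical in part.

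The labels of the cells limit what their comparison can show. Each of the 3 hydrogel libraries of RAW264.7 names another gel (Hyd3, Hyd4 and Hyd5), and none names lipopolysaccharide (LPS), the bacterial component that activates macrophages, whereas the text on the design speaks of LPS-induced macrophages with or without the gel. Whether the cells with hydrogel also received LPS cannot be told from these sources, so hydrogel and LPS cannot be told apart as the source of a difference. Of 4 LPS-induced genes picked after their values were seen, Tnf had 2679 to 2758 CPM (counts per 1000000 of the library, here by its total alone) with hydrogel and 3133 to 3284 without, Il1b had 98.1 to 136 with and 429 to 441 without, Acod1 had 909.6 to 1258 with and 2050 to 2138 without, and Nos2 had 478.7 to 487.5 with and 740.3 to 764.2 without. All 4 were lower with hydrogel, without overlap, and none was near 0 there.

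Glycolysis splits glucose into pyruvate, yielding ATP without oxygen, and lactate dehydrogenase turns pyruvate into lactate when the mitochondria cannot take it up. In low oxygen the prolyl hydroxylases of the EGLN family stop marking HIF-1α and HIF-2α for destruction, and these factors then raise transcription of most glycolytic genes and of genes for acid handling, collagen hydroxylation and mitophagy. Healing wounds are poorly perfused and rich in glycolytic leukocytes, and fast skeletal muscle, which lies under mouse skin, carries its own very abundant glycolytic isozymes.

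Levels below are CPM, counts per 1000000 of the TMM-scaled library size. Total counts ranged from 12.4 M to 27.1 M in wound libraries and from 17.9 M to 24 M in cell libraries. The 3 control libraries of day 7 were almost copies of each other: the median squared deviation per gene between pairs, in units of sampling variance, was 0.645 to 0.816, where sampling noise alone gives 0.455, against 9.04 to 42.4 at day 1. The hydrogel libraries of day 7 lay at 1.39 to 2.67. The RAW264.7 libraries lay at 0.503 to 0.626 without hydrogel and at 1.97 to 5.71 with it. Wound libraries also differed in cell type markers. Summed CPM of 22 skeletal muscle genes was 9058, 300400 and 179300 in the 3 controls of day 1, where replicate 1 stood apart, 42850 to 43370 in controls and 134100 to 152500 with hydrogel at day 7, and 42520 to 54890 against 18900 to 33630 at day 14. Summed CPM of 17 adipocyte genes was 44190 to 44720 in controls and 2376 to 2463 with hydrogel at day 7. In bulk tissue, fewer cells of a type and less RNA per cell cannot be told apart. The RAW264.7 libraries held the macrophage markers Cd68 (727 to 1064 CPM) and Csf1r (437 to 956 CPM). Acta1, Krt5 and Krt14 stood at 0 in all 6. Only 7 of the 13 macrophage markers had enough counts to test there. Other lists were not empty: 7 of 22 muscle, 7 of 17 adipocyte and 4 of 11 basal keratinocyte genes could be tested. Summed CPM with and without hydrogel was 45.66 to 58.13 and 44.01 to 48.04 for muscle genes. It was 861.9 to 982.1 and 1060 to 1094 for adipocyte genes, and 70.15 to 82.17 and 188.6 to 192.5 for basal keratinocyte genes.

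HIF factors bind DNA at hypoxia response elements, whose core is ACGTG or GCGTG. Promoter sequences from RefSeq (build GRCm38.p6), each from 250 bases before to 50 after a transcription start, were listed for 39 of the 42 genes; Slc2a3, Epas1 and Ndrg1 were not among them. A core on either strand was found in at least 1 window of 35 of the 39 (89.7%), against 46.7% of 27025 genes. The promoters of the 42 are rich in CpG, a pair that both cores contain: among the 6611 genes with at least as many CpG per window as the median of the 39, 76.3% held a core. Tpi1, Gpi1, Pgam2 and Car12 had no core in this window, and a match or its absence says only which letters are there. The stretches below lie before the outermost annotated start of 7 genes on which the results turn, 5′ to 3′ on the gene's strand, with cores in capitals (CACGT and CACGC are the same cores on the opposite strand, and CACGTG holds one on each).
Slc2a1, chr4:119108551-119108710, + strand: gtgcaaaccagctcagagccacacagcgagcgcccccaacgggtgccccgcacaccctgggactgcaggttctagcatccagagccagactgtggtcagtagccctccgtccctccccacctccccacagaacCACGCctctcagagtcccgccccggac
Ldha, chr7:46845644-46845803, + strand: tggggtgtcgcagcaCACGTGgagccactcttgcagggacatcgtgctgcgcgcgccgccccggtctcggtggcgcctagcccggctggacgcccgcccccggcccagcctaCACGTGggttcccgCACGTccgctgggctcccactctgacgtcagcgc
Pgk1, chrX:106186940-106187099, + strand: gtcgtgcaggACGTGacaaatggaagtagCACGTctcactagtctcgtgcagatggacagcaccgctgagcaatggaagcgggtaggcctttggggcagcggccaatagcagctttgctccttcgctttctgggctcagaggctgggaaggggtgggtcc
Tpi1, chr6:124814297-124814408, - strand: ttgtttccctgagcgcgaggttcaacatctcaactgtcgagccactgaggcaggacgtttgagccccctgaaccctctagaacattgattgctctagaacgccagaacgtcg
Bnip3, chr7:138909520-138909679, - strand: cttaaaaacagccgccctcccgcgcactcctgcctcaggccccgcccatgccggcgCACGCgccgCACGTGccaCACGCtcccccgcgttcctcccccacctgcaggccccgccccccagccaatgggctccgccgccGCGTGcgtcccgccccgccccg
Adm, chr7:110627497-110627656, + strand: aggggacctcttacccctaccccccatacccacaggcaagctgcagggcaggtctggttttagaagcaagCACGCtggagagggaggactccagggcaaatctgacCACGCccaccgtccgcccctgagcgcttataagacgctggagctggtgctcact
P4ha1, chr10:59323136-59323295, + strand: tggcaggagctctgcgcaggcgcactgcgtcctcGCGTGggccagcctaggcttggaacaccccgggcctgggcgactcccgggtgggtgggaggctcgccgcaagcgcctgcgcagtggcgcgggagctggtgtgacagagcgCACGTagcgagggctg
These 7 were chosen to set a transporter and enzymes beside hypoxia targets that moved otherwise in the macrophages. Ldha and Pgk1 both hold cores and changed in opposite directions there, though the call of Pgk1 was lost when some single libraries were left out. Tpi1, without a core, changed with Ldha. Of the 39 genes, 80.0% of the 15 that rose in the cells held a core. It was 92.9% of the 14 that fell and 100% of the 10 not called or not tested. Whether cores go with direction was not tested.

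Which isozyme carried each step differed between wound tissue and macrophages (described per kilobase of exon, as the share of a family's summed counts, mean of 3 libraries, with no test). Phosphofructokinase commits sugar to glycolysis. Its muscle form Pfkm made up 79.3% to 97.8% of the family in the 6 wound groups, and 2.60% and 3.05% in RAW264.7 without and with hydrogel, where the liver form Pfkl (46.1% and 67.5%) and the platelet form Pfkp (51.3% and 29.4%) shared the step. The muscle mutase Pgam2 made up 87.0% to 98.3% in wound groups and under 1% in the cells (0.821% and 0.338%). The muscle enolase Eno3 made up 85.5% to 98.5% in wound groups, and the general form Eno1 99.5% and 99.4% in the cells. Eno1 values are uncertain, because a near-identical copy, Eno1b, held 27.2% to 37.7% as many counts as Eno1 in every library. Per kilobase, Aldoa (aldolase) ranked first of the 42 in all 6 wound groups, and Pkm (pyruvate kinase, the last ATP-forming step) in both cell groups. In wounds and cells alike, pairs that also map to pseudogenes were not counted. Gapdh may therefore rank too low, and the share of Pgam1 may be too small and that of Pgam2 too large.

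Hexokinase traps glucose in the cell. Hk3, the form of myeloid cells, made up 49.0% and 52.5% of the family in RAW264.7 without and with hydrogel. In wounds it made up 15.6% ± 0.874 (SD, n = 3) in controls and 1.07% ± 0.224 with hydrogel at day 7, and 12.1% and 1.03% at day 14. At day 1 it made up 2.98% ± 4.49 in controls and 6.25% ± 4.04 with hydrogel, and the groups overlapped (0.286% to 8.16% and 2.6% to 10.6%). The insulin-responsive muscle form Hk2 was 49.0% of the family in controls and 90.7% with hydrogel at day 7. Ldhb, the lactate dehydrogenase of oxidative tissue, made up 4.87% of its pair in controls and 6.21% with hydrogel at day 1, and 9.54% and 18.1% at day 7. At day 14 it made up 17.6% in controls (7.18% to 24.4%) and 24.9% with hydrogel (24.2% to 25.3%), groups that overlapped. It had no count in any RAW264.7 library. Pdk4, a kinase that shuts off pyruvate dehydrogenase in fasting muscle, made up 77.6% to 97.6% of its pair with Pdk1 in 5 wound groups and 49.0% with hydrogel at day 14. In RAW264.7, neither Ldhb nor Pdk4 had a count among 132.9 M, which allows up to 0.0226 CPM over the 6 libraries.

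**Figure D1:**
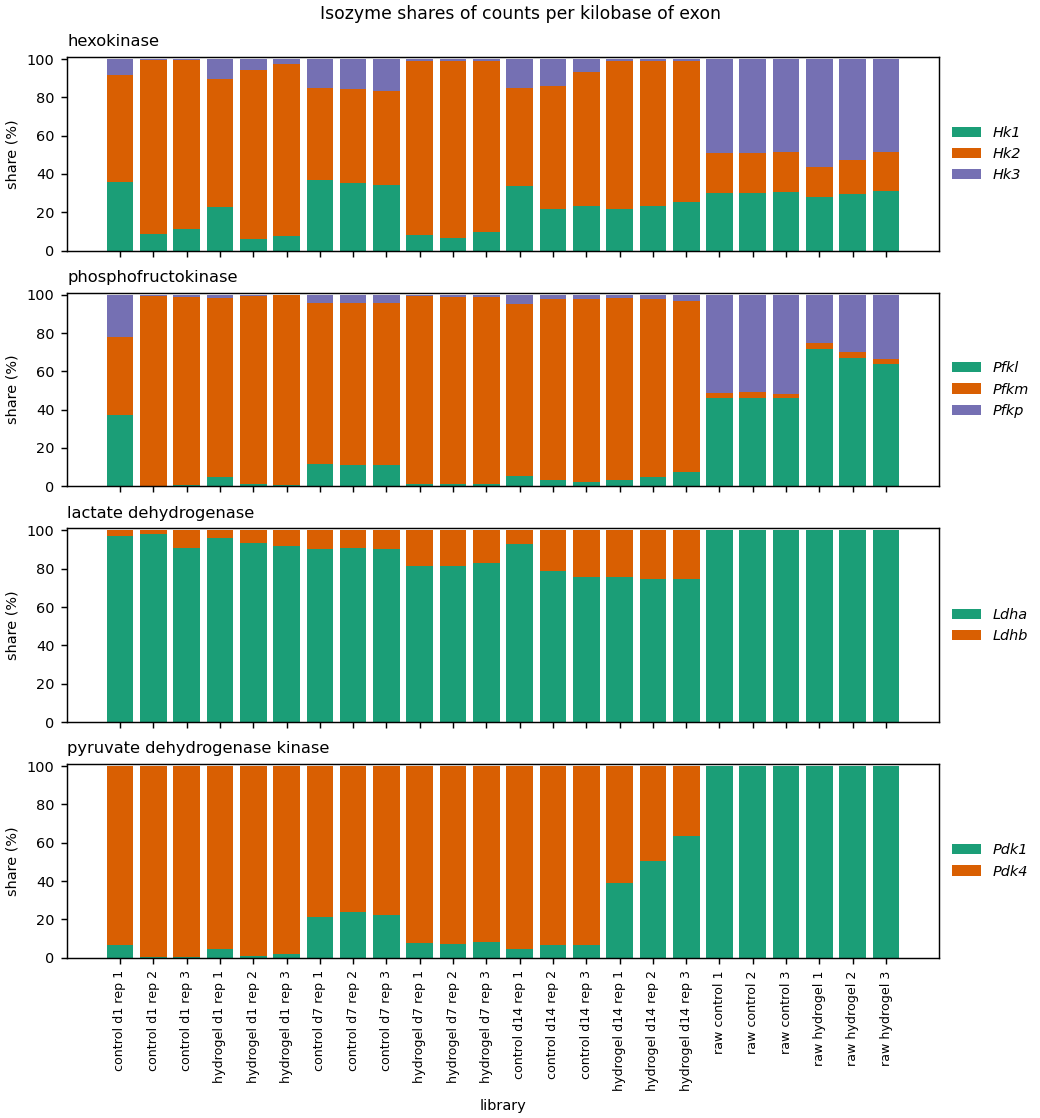
Share of each isozyme in its family's counts per kilobase of exon (percent, vertical axis) in each of the 24 libraries (horizontal axis) for 4 enzyme families. Pfkm fills most of the phosphofructokinase bar in every wound library except control day 1 replicate 1 and almost none in the 6 cell libraries, which have no Ldhb or Pdk4.

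In RAW264.7 with hydrogel, 5 of the 7 genes of lower glycolysis rose and 2 fell, 4 of the 9 of upper glycolysis and its control rose and 4 fell, and of 10 tested hypoxia targets 4 rose and 5 fell. Ldhb, Pdk4, Epas1, Egln3 and P4ha2 had too few counts to test. Of the other 37, 17 rose and 14 fell (edgeR quasi-likelihood test, Benjamini-Hochberg adjusted p below 0.05). Over all 12972 genes tested 72.5% were called, 34.7% higher and 37.8% lower, so the count of called members, 83.8%, lies near a high background, and sizes say more than calls. The median log2 fold change was 0.14 for the tested members and -0.04 for all genes.

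Of the 2 glucose transporters the less abundant one rose. Slc2a1 (GLUT1) had 816, 806 and 760 CPM with hydrogel and 836, 823 and 839 without, groups that did not overlap, but its difference did not pass (adjusted p in the edgeR test 0.3). Slc2a3 (GLUT3, the high-affinity form of activated leukocytes) had 36.6, 36.4 and 35.4 CPM against 17.3, 17.96 and 18.6, a rise of 1.01 ± 0.07 on the log2 scale (SE, edgeR adjusted p = 4.84e-07). Hk2 fell by 0.29 ± 0.09 (241 to 320 CPM against 336 to 345), and Hk1 and Hk3 were not called.

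From phosphoglucose isomerase to pyruvate kinase an abundant isozyme of most steps rose. Gpi1 rose by 0.50 ± 0.07 on the log2 scale, Pfkl, which held a smaller share than Pfkp without hydrogel, by 0.46 ± 0.07, Aldoa by 0.54 ± 0.08, Tpi1 (triosephosphate isomerase) by 0.61 ± 0.07, Gapdh by 0.68 ± 0.07, Pgam1 by 0.52 ± 0.06 and Eno1 by 0.90 ± 0.08. Pkm had 13540, 12350 and 11060 CPM with hydrogel against 6969, 7032 and 7157 without, a rise of 0.80 ± 0.08 (edgeR adjusted p = 6.56e-06), and all 3 hydrogel libraries lay above all 3 others. Eno3, at 3.28 to 9.31 CPM, rose by 1.29 ± 0.12. Counts of Gapdh and, less so, of Aldoa, Tpi1, Pgam1, Pgk1 and Ldha are uncertain, since pairs that also map to their many pseudogenes were left out of the counts. Pgk1 (phosphoglycerate kinase, the first ATP-forming step) went the other way: it had 1613, 2235 and 2640 CPM with hydrogel against 2799, 2776 and 2746, a fall by 0.36 ± 0.14 (edgeR adjusted p = 0.0403) that was lost when hydrogel replicate 2 or any 1 of the 3 control libraries was left out (highest adjusted p 0.104). Hydrogel replicate 1 was the lowest of the 3 for Pgk1 by a wide margin.

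Pfkp and the regulators Pfkfb3 and Pfkfb4 fell. Pfkp had 253, 306 and 323 CPM with hydrogel against 548, 545 and 551, a fall by 0.90 ± 0.09 (edgeR adjusted p = 4.92e-06). Pfkfb3, whose product makes the strongest activator of phosphofructokinase and which inflammatory signals induce, had 52.5, 63.7 and 76.7 CPM against 158, 151 and 154, a fall by 1.26 ± 0.11 (edgeR adjusted p = 3.15e-06). Pfkfb4 fell by 0.55 ± 0.08 and the minor Pgam2, at 1.22 to 2.56 CPM, by 0.77 ± 0.18. Aldoc fell by 0.14 ± 0.06, a call that was lost in 9 of 13 alternative fits. Pfkm was not called.

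Genes of lactate production and export rose, and the kinase gene Pdk1 fell. Ldha, which makes lactate, had 3718, 3497 and 3193 CPM with hydrogel against 2242, 2229 and 2242 (log2 0.63 ± 0.07, edgeR adjusted p = 1.37e-05). The lactate carriers Slc16a1 (MCT1) and Slc16a3 (MCT4) rose by 0.48 ± 0.10 and 0.40 ± 0.08. Pdk1, a kinase that shuts off pyruvate dehydrogenase, fell from 44.7 to 49.4 CPM without hydrogel to 27.5 to 35.7 with it (log2 -0.57 ± 0.09).

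Among oxygen sensing and hypoxia targets, Hif1a fell and the targets divided. Hif1a, the gene for HIF-1α, had 145, 136 and 141 CPM with hydrogel against 293, 294 and 279 without, a fall by 1.04 ± 0.06 (edgeR adjusted p = 1.51e-07). The groups did not overlap for 34 of the 37 tested members, beside 75.9% of all genes. Egln1, the main oxygen-sensing hydroxylase, was not called (log2 0.15 ± 0.07). Bnip3, a mitophagy receptor, had 36.4, 47.0 and 52.6 CPM against 125.5, 124.5 and 122.6 (log2 -1.45 ± 0.11). Adm, a vasodilator peptide, was low in both, at 0.617, 0.793 and 0.589 CPM against 2.55, 2.41 and 2.22 (log2 -1.83 ± 0.19). Kdm3a, a histone demethylase, had 33.5, 34.9 and 38.5 CPM against 84.1, 86.9 and 83.2 (log2 -1.25 ± 0.07), P4ha1, which hydroxylates collagen, fell by 0.80 ± 0.10, and Ddit4, an inhibitor of mTORC1, by 0.59 ± 0.07. Not every target fell: Car12, a carbonic anhydrase of the cell surface, rose from 20.5 to 22.5 CPM to 30.9 to 42.2 (log2 0.81 ± 0.11), Higd1a, a protein of the respiratory chain, rose by 0.44 ± 0.07, Ndrg1 by 0.24 ± 0.08 and Ankrd37 by 0.33 ± 0.14. Car9 was not called. The call of Ankrd37 was lost in 9 of 13 alternative fits and that of Ndrg1 when control replicate 2 or 3 was left out.

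**Figure D2:**
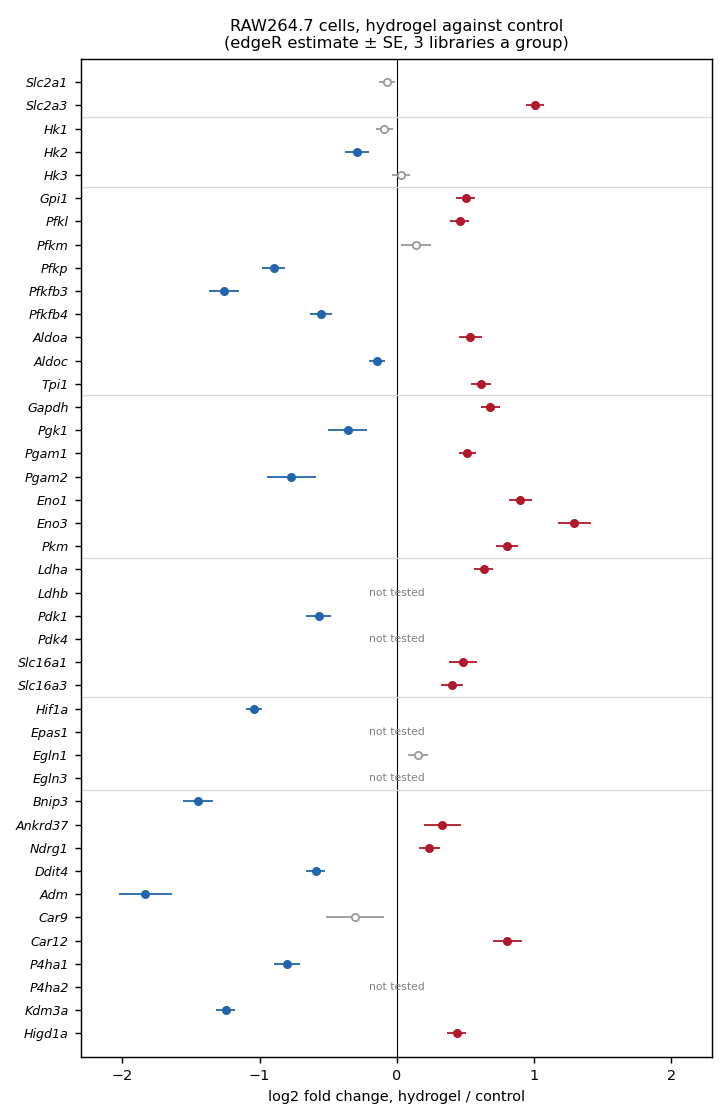
Log2 fold change, hydrogel over control, in RAW264.7 (horizontal axis, edgeR estimate ± SE, n = 3 and 3), for each gene by role from glucose uptake at the top to hypoxia targets at the bottom; filled red points were called higher, filled blue lower, open grey not called. Enzymes from Gpi1 to Ldha lie mostly to the right, while Hif1a, Bnip3, Adm, P4ha1 and Kdm3a lie to the left.

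Other genes of these pathways in the cells are read against the 72.5% of all genes called. Of 10 tested further glycolytic genes, 5 rose and 3 fell (median log2 0.10). Of 23 tested among 25 further hypoxia genes, 7 rose and 14 fell (median log2 -0.36); those that fell included Ero1l (-1.17), which oxidises folding proteins, Mxi1 (-1.01), a MYC antagonist, and Bnip3l (-1.12), a mitophagy receptor. Of 7 genes of the pentose phosphate pathway, the branch that makes NADPH, 5 rose and 2 fell, with Tkt at 0.89 and Taldo1 at 0.77. Of 11 tested glycogen genes 8 fell, among them Ugp2 (-0.99).

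In wounds more members passed between hydrogel and control at day 7 than at day 1 or day 14. Of the 42, 15 rose with hydrogel and 1 fell (edgeR, fitted over all 18 wound libraries, adjusted p below 0.05), which is 38.1% of the members against 21.6% of all 17592 genes, 9.86% higher and 11.7% lower. The median log2 fold change was 0.88 for the members and 0.01 for all genes. The groups did not overlap for 37 of the 42, but that held for 70.2% of all genes, so lack of overlap says little here.

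Of the 5 transporters and hexokinases, 2 rose. Slc2a1 had 31.1, 31.2 and 31.1 CPM in controls and 91.7, 107 and 83.1 with hydrogel, a rise of 1.59 ± 0.27 on the log2 scale (edgeR adjusted p = 0.00238). Hk2 had 60.5, 60.8 and 58.9 against 530, 604 and 463 CPM, or 8.86-fold in the means (log2 3.15 ± 0.46, edgeR adjusted p = 0.00128). Every hydrogel library lay above every control for both. Slc2a3, Hk1 and Hk3 were not called (0.738-fold, 1.09-fold and 0.334-fold in the means), with Hk3 at 11.4 to 12.3 CPM in controls and 2.61 to 4.98 with hydrogel.

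Along the chain, Pfkm had 310 to 328 CPM in controls and 2141 to 2219 with hydrogel (log2 2.78 ± 0.86), Tpi1 710 to 734 and 1924 to 2331 (1.55 ± 0.35), and Pkm 1059 to 1079 and 2833 to 3147 (1.48 ± 0.41). Pgk1 had 212, 214 and 228 CPM in controls and 1038, 948 and 1125 with hydrogel (2.25 ± 0.36, edgeR adjusted p = 0.00171), so it rose in wounds and fell in the cells. Aldoc, at 1.15 to 1.64 against 7.21 to 8.12 CPM, also rose here (2.49 ± 0.56). The more abundant Aldoa had 6979 to 7017 against 16830 to 17740 CPM and did not pass (edgeR adjusted p = 0.0949), nor did Gapdh (1.16 ± 0.42, 0.0609) or Eno3 (1.93 ± 0.70, 0.0608). Pfkfb3 lay at 85.0 to 93.0 CPM in controls and 37.3 to 39.8 with hydrogel, without passing.

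At the end of the pathway 4 of 6 genes rose. Ldha had 1302, 1314 and 1334 CPM in controls against 2866, 2684 and 3142 (log2 1.14 ± 0.27, edgeR adjusted p = 0.0091), and Ldhb 67.4 to 74.5 against 312 to 332 (2.2 ± 0.55). The carrier Slc16a3, which exports lactate from glycolytic fibres, had 33.2 to 33.7 against 198 to 243 CPM (2.73 ± 0.78) and Slc16a1 34.3 to 39.0 against 110 to 115 (1.63 ± 0.38). Pdk4 had 99.95, 93.75 and 98.45 CPM in controls and 326.9, 384.2 and 299.5 with hydrogel, and was not called (log2 1.79, at 2 SE 0.17 to 3.41). Pdk1 lay at 45.8 to 49.3 CPM in controls and 43.6 to 49.7 with hydrogel, and its estimate of -0.03 ± 0.24 spans, at 2 SE, -0.52 to 0.46.

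Oxygen sensing and its targets divided at day 7. Egln3, a hydroxylase that HIF itself induces, had 17.25, 17.48 and 16.76 CPM against 110, 115 and 104 (log2 2.67 ± 0.61). Epas1, the gene for HIF-2α, abundant in endothelium and fat, was the one gene that fell, from 363 to 373 CPM to 152 to 157 (-1.26 ± 0.35), where endothelial markers lay at 1234 to 1253 summed CPM in controls and 341 to 344 with hydrogel. Hif1a lay at 49.0 to 53.0 against 53.2 to 60.9 CPM and was not called. Car12 had 3.05, 3.66 and 3.70 CPM against 68.0, 71.5 and 60.2, or 19.2-fold in the means (4.26 ± 0.77, edgeR adjusted p = 0.00299), Car9 0.446 to 1.33 against 1.96 to 3.59 and Ankrd37 1.47 to 2.16 against 4.70 to 4.81. The other 8 hypoxia targets, among them Bnip3 (62.6 to 67.5 against 70.4 to 76.7 CPM) and Adm, were not called.

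These day 7 differences moved with cell type markers. Summed skeletal muscle markers were 3.33-fold higher with hydrogel, adipocyte markers 18.4-fold lower, basal keratinocyte markers 8.72-fold higher and macrophage markers 6.31-fold lower, each without overlap. In a fit with muscle and adipocyte scores as covariates, 0 of the 42 were called at day 7 (edgeR, unadjusted p below 0.05 in 10), and Aldoc turned to -0.21 and Epas1 to 0.02. The scores separate the 2 groups of day 7, so hydrogel and tissue make-up cannot be told apart. In another fit the day 7 libraries of each arm were summed to 1 library a group, although only those of the controls were near-copies. That fit had no spread left within either group of day 7. Slc2a1, Hk2, Aldoc, Tpi1, Pgk1, Ldha, Ldhb, Slc16a1, Egln3 and Car12 passed in 15 of 17 alternative fits, all but the covariate fit and the summed fit. The calls of Pfkm, Pkm, Slc16a3, Epas1, Ankrd37 and Car9 were also lost when single day 7 libraries of either arm were left out, and 10 to 12 members were called in those fits.

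**Figure D3:**
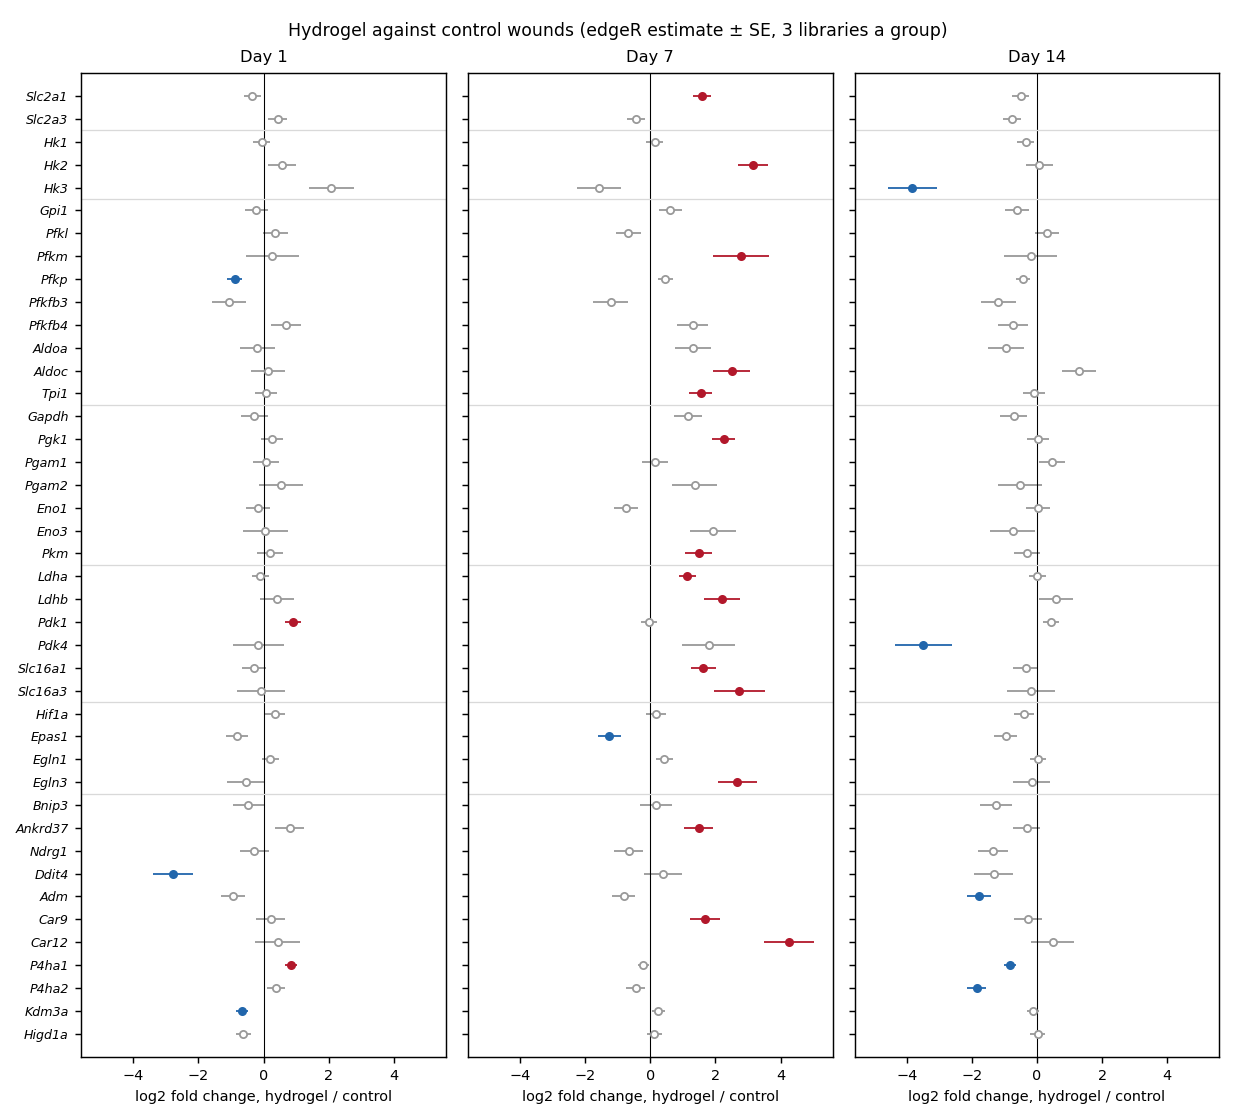
Log2 fold change, hydrogel over control, at days 1, 7 and 14 (panels; horizontal axis, edgeR estimate ± SE, n = 3 and 3) for each gene by role; filled red points were called higher, filled blue lower, open grey not called. Filled red points crowd the day 7 panel from Slc2a1 to Slc16a3, and the day 14 panel holds 5 filled points, all blue.

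At day 1 few members differed: 2 rose and 3 fell with hydrogel (11.9%, against 7.55% of all genes, 4.53% higher and 3.02% lower). Ddit4, an inhibitor of mTORC1 that stress and glucocorticoids induce, had 170, 822 and 767 CPM in controls and 35.8, 188 and 30.6 with hydrogel (log2 -2.79 ± 0.62, edgeR adjusted p = 0.0175), and control replicate 1 lay below hydrogel replicate 2. P4ha1 had 30.4, 35.6 and 40.3 CPM against 58.3, 61.6 and 69.3 (0.83 ± 0.18, edgeR adjusted p = 0.0146), with no overlap. Pdk1 had 41.0, 33.3 and 38.8 CPM against 40.0, 84.7 and 87.8 (0.91 ± 0.25), and its hydrogel replicate 1 lay within the controls. Pfkp (79.1 to 126 CPM against 39.5 to 67.2) fell by 0.89 ± 0.22, and Kdm3a (33.3 to 52.6 against 24.8 to 34.3) by 0.66 ± 0.18. All 5 calls were lost when hydrogel replicate 3 of day 1 was left out, and also in a fit of the day 1 libraries alone (edgeR, unadjusted p below 0.05 in 6 of the 42 there and in 8 without that library). Without control replicate 1, the library low in muscle markers (9058 CPM) and high in adipocyte markers (85940 CPM), 10 members were called. Other summed markers also differed at day 1: adipocyte markers were 4.78-fold lower with hydrogel and neutrophil markers 3.77-fold higher, both with overlapping groups, and erythrocyte markers 8.16-fold lower without overlap. Their part in these results was not tested. The chain enzymes spanned control replicate 1: Pfkm had 64.4 CPM in it and 2124 and 3710 in the other controls, and Eno3 228 against 4288 and 6986.

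At day 14 the members that differed were lower with hydrogel. Of the 42, 0 rose (edgeR; 0 with DESeq2, 1 with limma-voom; unadjusted p below 0.05 in 12, either direction) and 5 fell (11.9%, against 16.1% of all genes, 5.83% higher and 10.3% lower). The median log2 fold change was -0.35 for the members and 0.03 for all genes. Hk3 had 12.6, 17.9 and 5.82 CPM in controls and 0.947, 0.811 and 0.794 with hydrogel (-3.82 ± 0.75, edgeR adjusted p = 0.00495), the one call between hydrogel and control wounds that held in 17 of 17 alternative fits. Pdk4 had 239, 277 and 217 CPM against 31.6, 21.1 and 12.5 (-3.49 ± 0.87, edgeR adjusted p = 0.015), or 11.2-fold lower in the means, a call lost without hydrogel replicate 2 or 3 of day 14. Both collagen hydroxylases fell: P4ha1 had 83.0, 61.6 and 50.3 CPM against 39.3, 35.0 and 34.7 (-0.84 ± 0.18), and P4ha2 90.4, 58.5 and 38.3 against 22.9, 15 and 13.9 (-1.85 ± 0.29, edgeR adjusted p = 0.00187). Adm had 7.78, 2.96 and 3.39 CPM against 1.15, 1.59 and 1.35 (-1.78 ± 0.37). In a fit of day 14 alone P4ha1, P4ha2 and Adm lost their calls (edgeR adjusted p 0.0754, 0.0559 and 0.0733), and P4ha1, Adm and Pdk4 lost theirs with the day 7 libraries summed. The groups did not overlap for 22 of the 42, beside 43.7% of all genes. The 7 lower glycolytic enzymes included no call, and Ldha lay at 903 to 1189 against 828 to 1274 CPM.

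The lower values of day 14 also moved with markers. Summed fibroblast markers, the cells that make collagen, were 10.6-fold lower with hydrogel (2219 to 2809 CPM against 11610 to 48040), macrophage markers 15.1-fold lower (69.6 to 90.3 against 294 to 2777) and muscle markers 1.91-fold lower, and control replicate 1 held the highest P4ha1, P4ha2 and Adm of its group. In a fit of day 14 alone 3 members were called, of which 2, Hk3 and Pdk4, were among these 5, and with muscle and adipocyte scores as covariates 12 were called.

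**Figure D4:**
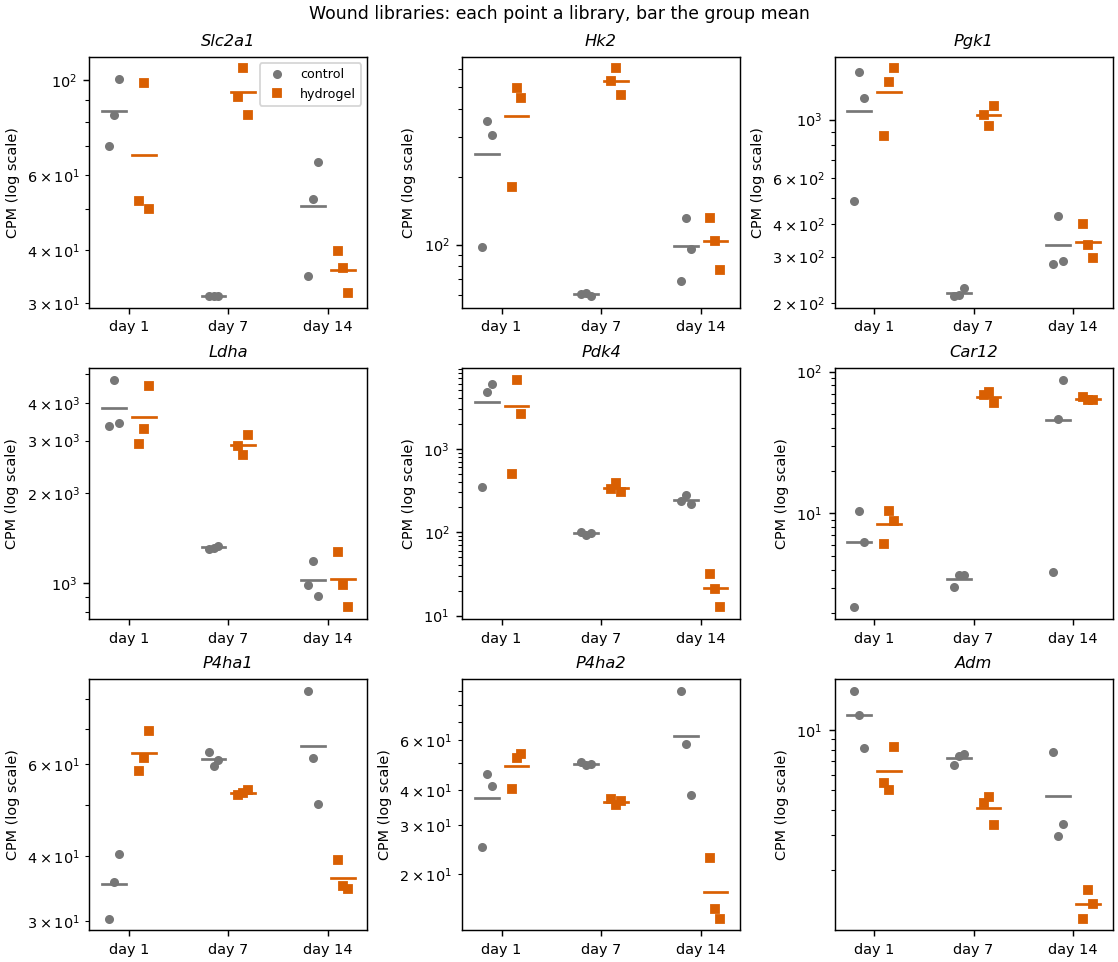
CPM (log axis) of 9 genes in each wound library by day; grey circles are control libraries, orange squares hydrogel libraries, and short bars group means. At day 7 the hydrogel libraries lie above the controls for Slc2a1, Hk2, Pgk1, Ldha, Pdk4 and Car12, and at day 14 below them for Pdk4, P4ha1, P4ha2 and Adm.

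Whether the hydrogel difference itself depended on the day was tested jointly over the 3 days. It did for 14 of the 42 (33.3%, against 15.8% of all genes): Slc2a1, Hk2, Hk3, Pfkp, Tpi1, Pgk1, Ldha, Pdk4, Slc16a1, Egln3, Ddit4, Car12, P4ha1 and P4ha2. Hk2 differed by 2.59 ± 0.61 more on the log2 scale at day 7 than at day 1 and by 3.07 ± 0.61 less at day 14 than at day 7. P4ha1 moved from 0.83 at day 1 to -0.84 at day 14, a change of -1.67 ± 0.25 (edgeR adjusted p = 0.00133). Without 1 control library of day 7, whichever it was, 7 members passed, and without control replicate 1 of day 1, 30.

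Over time, with TMM scaling, more members passed as lower than as higher in both arms. In controls 19 fell and 1 rose between days 1 and 7 (47.6%, against 31.6% of all genes, 15% higher and 16.6% lower), among them Pgk1 (log2 -2.30 ± 0.36), Pdk4 (-5.24 ± 0.94), Bnip3 (-2.67 ± 0.51) and Egln3 (-3.11 ± 0.62), while P4ha1 rose by 0.79 ± 0.18. With hydrogel 2 fell and 1 rose over the same interval (7.14%, against 18.3%, 7.76% higher and 10.5% lower): Pdk4 (-3.28 ± 0.86) and Bnip3 (-2.03 ± 0.50) fell and Car12 rose (2.97 ± 0.72). By day 14 18 had fallen and 2 risen in controls (47.6%, against 32.4%, 16.7% higher and 15.7% lower), and 26 had fallen and 2 risen with hydrogel (66.7%, against 47.8%, 21.8% higher and 26.1% lower). Car12 rose in both arms by then (2.87 and 2.92), and Pdk4 fell in both, by 3.91 in controls and by 7.24 with hydrogel, from 501 to 6737 CPM to 12.5 to 31.6. Car12 spanned 3.89 to 87.94 CPM in controls of day 14, where replicate 1 lay within the day 1 range of 2.17 to 10.46. With hydrogel it lay at 62.85 to 66.31 CPM. These comparisons share their day 1 libraries within an arm. The counts in controls at days 7 and 14 were 13 and 11 without control replicate 2 of day 1, 27 and 28 without replicate 1, and 11 and 0 in fits of the compared groups alone (edgeR, unadjusted p below 0.05 in 15 at day 14). With the day 7 libraries summed they were 0 and 10 (edgeR, unadjusted p below 0.05 in 12 at day 7). Without TMM scaling the median log2 fold change of all genes lay at 0.36 to 0.64 in 3 of these 4 comparisons, where TMM gave -0.07 to 0.02, and at 0.22 against -0.11 in hydrogel wounds at day 7, and the calls split otherwise: 3 higher and 13 lower in controls and 3 and 2 with hydrogel at day 7, 5 and 8 in controls and 4 and 17 with hydrogel at day 14. Markers moved over the same time in both arms. In controls muscle markers were 3.77-fold lower at day 7 and 3.31-fold lower at day 14 than at day 1, fibroblast markers 10.9-fold and 26.1-fold higher, and adipocyte markers 13.5-fold lower at day 14. These are ratios of group means. Muscle markers spanned 9058 to 300400 CPM in controls of day 1, a range that holds every control of days 7 and 14. Adipocyte markers spanned 8472 to 85940 CPM in controls of day 1 and 1478 to 4793 at day 14. With hydrogel muscle markers went from 131000 to 256200 CPM at day 1 to 18900 to 33630 at day 14; with muscle and adipocyte scores as covariates 3 members were called there, and 0 in controls at day 14 (edgeR, unadjusted p below 0.05 in 10).

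**Figure D5:**
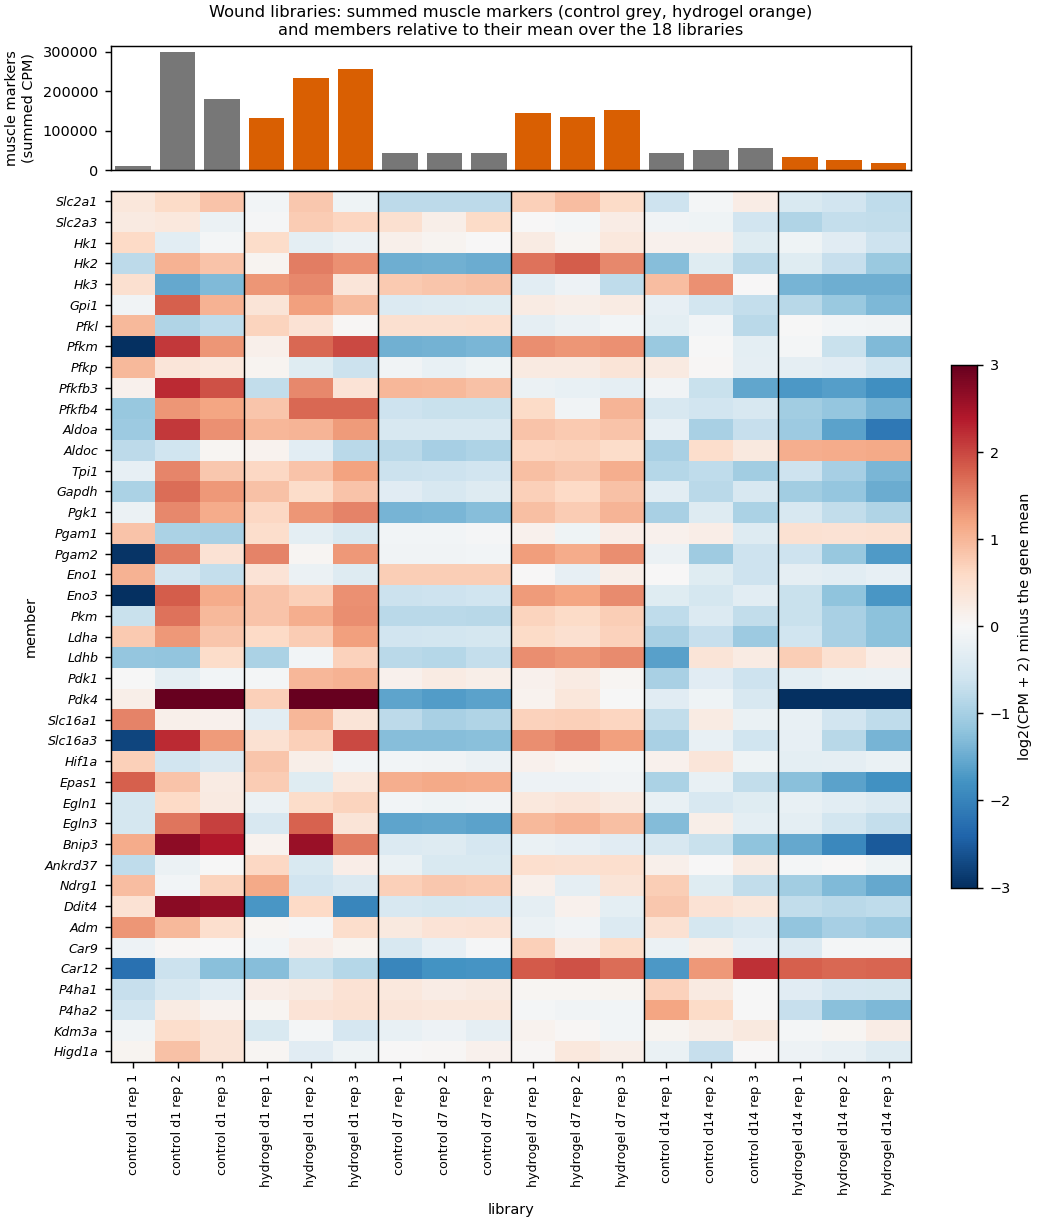
Upper panel: summed CPM of 22 skeletal muscle markers (vertical axis) in each wound library, controls grey and hydrogel orange. Lower panel: log2(CPM + 2) of each gene minus its mean over the 18 libraries, colours limited to 3 in either direction; most glycolytic rows are high where the muscle bar is high, and control day 1 replicate 1, at 9058 CPM of muscle markers, is dark blue for Pfkm, Pgam2 and Eno3.

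Of the further genes of the pathways in wounds, glycogen and hypoxia genes gave most calls, at day 7, where 21.6% of all genes were called. Of 15 glycogen genes, 5 rose and 3 fell at day 7 (median log2 1.45), with Pygm, the muscle glycogen phosphorylase, at 3.03 and Pygl, the liver form, at -3.74, and none was called at day 1 or 14 (edgeR, unadjusted p below 0.05 in 5 and 2). Of 25 further hypoxia genes 6 rose and 3 fell at day 7, led by Ak4 (2.48), a mitochondrial adenylate kinase, and Insig2 (1.69). Angptl4, a lipase inhibitor that fat and hypoxia induce, was lower at all 3 days (-2.46, -3.08 and -2.72). Of 14 tested further glycolytic genes Tigar rose at days 1 and 7 (1.62 and 1.77), and Fbp1, a gluconeogenic enzyme, fell at day 7 (-2.13) and rose at day 14 (3.10). Of 7 pentose phosphate genes G6pdx fell at day 1 (-1.62), Rpia rose (0.99) and Tkt fell (-1.54) at day 7, and of 12 genes of pyruvate entry 1 rose at each day, Pdpr, Pdk3 and Pdp2 in turn.

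Set side by side, 7 of the 15 genes that rose with hydrogel at day 7 in wounds also rose in RAW264.7, where 34.7% of all genes and 17 of the 37 tested members rose (Tpi1, Pkm, Ldha, Slc16a1, Slc16a3, Ankrd37 and Car12), 3 fell there (Hk2, Aldoc and Pgk1), 3 were not called and 2 were not tested. The 2 systems share no libraries. Hk1 was the one member called in none of the 8 comparisons between groups, with group means between 45.2 and 67.5 CPM in wounds.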

How the data were processed

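Messenger RNA was sequenced from 18 wound and 6 RAW264.7 libraries. The deposited values are raw counts of read pairs per gene symbol. Per the submitters' processing notes, the tools were Trim Galore 0.6.10, FastQC 0.11.9, HISAT2 2.2.1, SAMtools 1.9 and featureCounts 2.0.6, with build mm10. Per the file headers, the authors counted pairs over exons by gene name in the GENCODE M25 annotation without strand, so reads of antisense or overlapping genes cannot be told apart, and pairs mapping to several places or genes were not counted. Samples were grouped by their titles. The members and all gene lists were chosen with earlier results of these data known. Analyses ran in R 4.3.3 with edgeR 4.0.16. Its filterByExpr, set to at least 10 counts and 15 in total, left 17592 genes in wounds and 12972 in cells, with all 42 members and 37 of them. After TMM scaling, robust quasi-likelihood F tests of edgeR were fitted to 6 group means over 18 wound libraries, and separately to the 6 cell libraries. The threshold was 0.05 on p-values adjusted over all genes tested by Benjamini-Hochberg, and rose or fell is written of genes under it. CPM are counts per 1000000 of the library size after TMM scaling unless said otherwise. Log2 fold changes are edgeR estimates ± SE, with its default prior count. A prior count of 2 entered log CPM of marker scores and of the deviations of same-numbered libraries. The SE is the absolute log2 fold change over the square root of the quasi-likelihood F. Spans of 2 SE are therefore not adjusted for the number of genes tested, unlike the calls. Alternatives were RLE size factors, no filter, a stricter filter, DESeq2 1.42.0, limma-voom (limma 3.58.1) with quality weights, the compared groups alone, a replicate block, each library left out, the day 7 libraries summed, 2 control libraries left out, marker scores as covariates and, chosen after seeing the data, library totals without TMM. All members are described, and of further lists at most 4 genes by smallest adjusted p, except for items that are not reported here. The fit was tested on simulated data with the same spread of a gene in all groups and independent libraries. That test does not cover spreads that differ between groups, as those of the wounds did. Counting limits at 0 use 3 counts and cover counting error only.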

Additional observations from a re-analysis of the deposited data

Results flagged for a closer look

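The hydrogel difference in wounds varied with the day for 14 of the 42 genes, by the joint edgeR test of the interaction with Benjamini-Hochberg adjustment over all 17592 genes. Among transporters and enzymes the adjusted p was 0.00418 for Slc2a1, 0.00773 for Hk2, 0.00539 for Hk3, 0.0231 for Pfkp, 0.048 for Tpi1, 0.0116 for Pgk1 and 0.0499 for Ldha. Among genes of pyruvate and lactate handling it was 0.0198 for Pdk4 and 0.0277 for Slc16a1. Among genes of oxygen sensing and hypoxia targets it was 0.0265 for Egln3, 0.0441 for Ddit4, 0.0226 for Car12, 0.00278 for P4ha1 and 0.00679 for P4ha2. The direction of the fitted difference was positive at day 7 and negative at days 1 and 14 for Slc2a1, Pfkp, Pdk4, Slc16a1, Egln3 and Ddit4, and positive at day 1 and negative at days 7 and 14 for Hk3, P4ha1 and P4ha2. With the day 7 libraries summed within each group none of the 14 passed (edgeR, unadjusted p below 0.05 in 6 of the 42).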

How the results depend on the processing

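In RAW264.7 the count of called members stayed between 27 and 31 when each library was left out in turn and between 29 and 33 under the other alternatives; of the 31 calls there, those of Aldoc, Ankrd37, Pgk1, Ndrg1 and Hk2 were lost in at least 1 fit. In wounds, leaving out each library in turn gave 0 to 10 called members for hydrogel against control at day 1, 10 to 12 at day 7 and 4 to 7 at day 14; 13 to 27 for controls at day 7 and 11 to 28 at day 14 against day 1; 1 to 7 and 22 to 29 for hydrogel wounds at days 7 and 14 against day 1; and 7 to 30 for the test between days. The lowest count at day 1 came without hydrogel replicate 3, and the highest counts at day 1, in both control time courses and between days came without control replicate 1 of day 1. Without control replicate 2 of day 1, 13 and 11 members were called in the control time courses at days 7 and 14, and without hydrogel replicate 1 of day 1, 7 were called for hydrogel wounds at day 7. With the day 7 libraries summed, 0 were called at day 1, day 7, for controls and hydrogel wounds at day 7 against day 1, and between days (edgeR; unadjusted p below 0.05 in 7, 6, 12, 2 and 6), 2 at day 14 and 10 for controls at day 14 against day 1. With muscle and adipocyte scores as covariates the counts were 13 at day 1, 0 at day 7, 12 at day 14, 0 for controls at day 14 and 3 for hydrogel wounds at day 14 against day 1 (unadjusted p below 0.05 in 10 for each 0), and the direction turned for Aldoc (-0.21) and Epas1 (0.02) at day 7 and for Hk2 (0.06), Eno3 (0.54), Slc16a3 (2.16) and Egln1 (0.55) in hydrogel wounds at day 14 against day 1. With the compared groups alone, 0 were called at day 1 (unadjusted p below 0.05 in 6), 38 at day 7, 3 at day 14, and 11 and 0 (15 unadjusted) for controls at days 7 and 14. With no filter, 2 were called at day 1 and 9 between days. DESeq2 gave 9 at day 14, 7 for hydrogel wounds at day 7 and 25 between days. Limma-voom gave 11, 36 and 16 at days 1, 7 and 14, 31 and 25 for controls and hydrogel wounds at day 7, and 34 between days. Without the 2 control libraries that stood apart in markers (replicate 1 of days 1 and 14), 12 were called at day 1, 27 at day 7, 31 and 11 for controls and hydrogel wounds at day 7, and 32 between days. Library totals without TMM gave 2 at day 1 (1 higher and 1 lower), 13 for controls at day 14 and 5 for hydrogel wounds at day 7, put the median of all genes at 0.17 at day 14, against 0.03 with TMM, and turned Egln1 in hydrogel wounds at day 14 (0.03). The cause of these changes was not tested, except that summing and leaving out libraries leaves fewer samples. Same-numbered libraries did not deviate together throughout (correlations of deviations from -0.102 to 0.374). Where libraries are near-copies, deviations are mostly counting noise, so this check cannot show whether the numbers pair libraries. With the replicate number as a block the count for hydrogel wounds at day 7 against day 1 was 5, and the other counts stayed within 1.5 times. Genes under about 1 CPM, such as Adm in the cells and Car9 in wounds, rest on few counts.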
